A study of Homo sapiens with 6 samples.

Results

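The genes described here are the epidermal growth factor (EGF) receptor family and its ligands, 10 genes chosen by symbol from the 33392 rows of an RNA-seq table: the ligands AREG, EREG, HBEGF, TGFA, BTC and EPGN, the receptors EGFR, ERBB2 and ERBB3, and the receptor inhibitor ERRFI1. All 10 symbols had a row. The libraries came from HK-2 cells, a cell line derived from human proximal tubule epithelium, in 2 groups of 3 libraries. The first group carried an siRNA against DYRK2, a protein kinase, together with TGF-β1 (siDYRK2), and the second a scramble siRNA together with TGF-β1 (scramble). Both groups therefore share the TGF-β1 treatment and the 48 h time point; cells lacking TGF-β1 are not analysed here. Whether replicates are separate cultures is not in the labels, and every p-value therefore rests on a spread among libraries that may be technical.

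Ligands of the family are made as membrane-anchored precursors and are released by ADAM metalloproteases. Released ligand binds EGFR, which pairs with itself or with another family member and signals through the RAS-ERK and PI3K relays. ERBB2 binds no known ligand of its own and acts as a partner, while ERBB3 binds neuregulins and has little kinase activity, so that it too signals through partners. ERRFI1, also called MIG6, is a cytoplasmic inhibitor that binds the kinase domains of active receptors and is itself induced by the signal. In the kidney tubule the pathway is known for its part in repair after injury and, when it stays active, in fibrosis.

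Of the 10 genes, 4 of the 6 ligands lie together on the long arm of chromosome 4. EPGN, EREG, AREG and BTC occupy 486.2 kb of chromosome 4 (GRCh38, 74308473 to 74794686, GENCODE v29), with BTC on the minus strand and the other 3 on the plus strand. No other protein-coding gene is annotated between them. The gap is 49.8 kb between EPGN and EREG, 56.4 kb between EREG and AREG and 289.7 kb between AREG and BTC. The other members lie apart, HBEGF on chromosome 5 (140332843 to 140346631, minus strand), TGFA on chromosome 2 (70447280 to 70554193, minus strand), EGFR on chromosome 7 (55019021 to 55211628, plus strand), ERBB2 on chromosome 17 (39687914 to 39730426, plus strand), ERBB3 on chromosome 12 (56076799 to 56103505, plus strand) and ERRFI1 on chromosome 1 (8004404 to 8026308, minus strand).

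The promoters of the chromosome 4 ligands and of EGFR are shown because AREG, EREG, BTC and EGFR are the 4 members that were lower in the siDYRK2 libraries, while EPGN is their barely expressed neighbour. Each is the 250 bases before the RefSeq start (GRCh38.p14), read 5′ to 3′ on the gene's strand, at chr4:74308220-74308469 (EPGN, plus), chr4:74364895-74365144 (EREG, plus), chr4:74444886-74445135 (AREG, plus), chr4:74794524-74794773 (BTC, minus) and chr7:55018767-55019016 (EGFR, plus, the upstream of its 2 RefSeq starts in the table). Capitals mark the motifs searched on both strands, which do not overlap each other here. They are TATAAA, a form of the TATA box, the cAMP response element TGACGTCA and the AP-1-like pattern TGANTCA. Other forms of the TATA box were not searched. In the last N is any base, so that the pattern is wider than the AP-1 site itself.
EPGN: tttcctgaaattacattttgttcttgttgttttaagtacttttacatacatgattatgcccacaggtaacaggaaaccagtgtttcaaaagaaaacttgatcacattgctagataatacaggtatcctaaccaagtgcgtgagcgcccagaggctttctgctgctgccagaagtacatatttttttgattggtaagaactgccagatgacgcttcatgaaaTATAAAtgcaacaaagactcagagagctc
EREG: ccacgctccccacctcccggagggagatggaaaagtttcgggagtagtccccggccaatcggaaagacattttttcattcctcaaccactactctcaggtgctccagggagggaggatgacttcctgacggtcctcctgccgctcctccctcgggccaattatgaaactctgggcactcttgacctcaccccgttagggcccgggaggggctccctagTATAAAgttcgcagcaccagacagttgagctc
AREG: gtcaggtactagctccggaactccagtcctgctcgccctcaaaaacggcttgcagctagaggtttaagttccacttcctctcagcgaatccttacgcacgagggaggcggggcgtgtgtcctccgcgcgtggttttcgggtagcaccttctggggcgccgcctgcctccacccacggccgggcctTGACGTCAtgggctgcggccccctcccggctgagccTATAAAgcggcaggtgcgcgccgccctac
BTC: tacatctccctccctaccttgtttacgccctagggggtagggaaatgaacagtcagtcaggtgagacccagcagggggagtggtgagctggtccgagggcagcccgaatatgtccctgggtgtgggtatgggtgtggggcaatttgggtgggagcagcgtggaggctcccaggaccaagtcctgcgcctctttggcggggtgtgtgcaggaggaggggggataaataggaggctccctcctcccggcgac
EGFR: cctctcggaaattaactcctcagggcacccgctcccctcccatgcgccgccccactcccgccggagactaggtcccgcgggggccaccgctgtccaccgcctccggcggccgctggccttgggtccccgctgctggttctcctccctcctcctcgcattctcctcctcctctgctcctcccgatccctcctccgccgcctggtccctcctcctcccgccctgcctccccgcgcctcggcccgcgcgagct

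TATAAA lay 32 bases before the start in EREG, 29 in AREG and 29 in EPGN, and no match was found in these windows of BTC and EGFR. AREG also holds TGACGTCA 65 bases before its start. Of 35116 promoter windows of this length, 10.7% hold TATAAA, 1.65% TGACGTCA and 6.57% TGANTCA. Among the 10382 genes tested for expression that had a promoter in the table, 7.65% hold TATAAA, 3.48% TGACGTCA and 5.71% TGANTCA. Among the other member promoters that could be matched, the downstream EGFR start (chr7:55109589-55109838) holds TATAAA and TGANTCA 2 times each, the latter as TGAGTCA and TGACTCA. ERBB2 holds TGANTCA as TGATTCA, 222 bases before its start. The windows of HBEGF, TGFA and ERRFI1 hold none of the 3 motifs as searched. Towards its end the ERRFI1 window reads tatatata and the BTC window ataaata, letters that were not searched for. A window with no TATAAA may therefore still hold another form of the TATA box. In all, 9 of the 10 members had a promoter in the table. These matches describe the letters only, and the motifs were chosen with the expression values known.

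Expression was measured as FPKM, fragments scaled by transcript length and by library size, which allows levels to be compared between genes per unit of length. FPKM summed to between 252318 and 255378 per library, and sequencing depth is unknown, since the values did not resolve into whole reads. The siRNA target DYRK2 stood at 1.49 ± 0.0451 FPKM in siDYRK2 libraries and at 5.95 ± 0.110 FPKM in scramble libraries (SD, n = 3 each; limma adjusted p = 2.0e-06), or 25.1% of the scramble mean. An exact two-sided permutation test of DYRK2 gave p = 0.1, which is the minimum for groups of 3 and 3. The labelled renal origin was not borne out by the defining markers reported here: PAX8 lay at 0.08 to 0.09 FPKM in siDYRK2 and 0.18 to 0.19 FPKM in scramble libraries, and CDH16, SLC34A1 and HAVCR1 did not exceed 0.02 FPKM. Of a list of 7 lung epithelial genes 3 averaged at least 0.5 FPKM, and the list summed to 28.4 to 29.7 FPKM in siDYRK2 and 30.8 to 34.1 FPKM in scramble libraries. Most of that sum was NKX2-1, a lung and thyroid factor, at 23.1 to 24.0 FPKM in siDYRK2 and 25.5 to 27.3 FPKM in scramble libraries. SFTPB averaged 4.03 FPKM in siDYRK2 and 3.65 FPKM in scramble libraries, and NAPSA 1.24 FPKM in siDYRK2 and 1.98 FPKM in scramble libraries. SFTPC did not exceed 0.06 FPKM nor SFTPD 0.34 FPKM, and SFTPA1 and SCGB1A1 had no row.

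Markers of other cell types were compared by their summed FPKM per library. The 5 epithelial genes EPCAM, CDH1, KRT8, KRT18 and KRT19 summed to 238 to 250 FPKM in siDYRK2 and 333 to 351 FPKM in scramble libraries. Most of that difference lay in KRT19, at 97.6 FPKM in siDYRK2 and 158 FPKM in scramble libraries on average, and in KRT18, at 87.3 FPKM in siDYRK2 and 123 FPKM in scramble libraries. CDH1, KRT18 and KRT19 were called lower, while KRT8 (limma adjusted p = 0.45) and EPCAM (limma adjusted p = 0.083) were not called. CDH1 adds little to the sum but had the largest log2 fold change of the 5, −1.06 (limma adjusted p = 8.4e-05). It averaged 1.17 FPKM in siDYRK2 and 2.97 FPKM in scramble libraries. Endothelial genes summed to at most 0.16 FPKM and fibroblast and mesangial genes to at most 0.81 FPKM in any library. Of the 5 leukocyte genes only CD68 was above 0.5 FPKM, and 3 had no row; their sum was 16.3 to 17.1 FPKM in siDYRK2 and 11.1 to 17.5 FPKM in scramble libraries. The part of the lower epithelial sum in the results that follow was not tested. In bulk RNA, fewer cells of a kind and less RNA per cell cannot be told apart.

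Silencing of DYRK2 went with lower AREG, EREG, BTC and EGFR transcript and higher TGFA, ERBB2, ERBB3 and ERRFI1 transcript. The 2 abundant ligands fell most, AREG 1.82-fold and EREG 1.84-fold by mean FPKM, and EGFR fell 1.41-fold. The rises were smaller, from 1.19-fold for TGFA to 1.35-fold for ERBB3. HBEGF was not called and EPGN was too low to test. Of the 9 members with a mean of at least 0.5 FPKM over the 6 libraries, 4 were higher and 4 lower at a limma adjusted p under 0.05, with Benjamini-Hochberg adjustment over 15121 genes. Of all genes tested 38.3% were called, 20.4% higher and 17.9% lower, so calls are common in this comparison. For 8 of the 9 members the groups had no overlap, as for 51.7% of all genes tested. In absolute log2 fold change the median was 0.37 over the 9 members and 0.17 over the whole set tested. The members were chosen with earlier results of these data known, so these counts describe them and do not test them as a list.

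**Figure D1:**
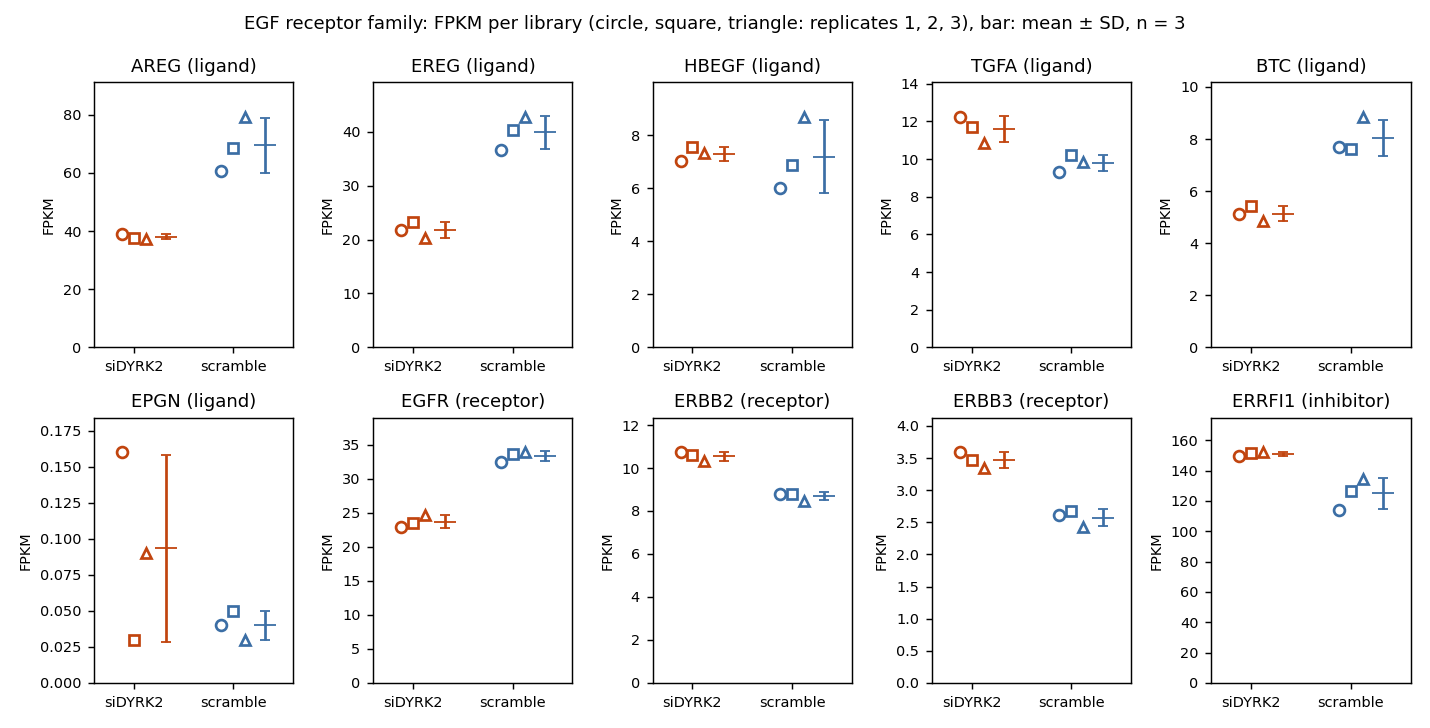
FPKM (linear axis from 0, scaled per gene) of the 10 members in each library, siDYRK2 in orange on the left and scramble in blue on the right, with bars for the mean ± SD (n = 3). AREG, EREG, BTC and EGFR are lower in all siDYRK2 libraries than in any scramble library, TGFA, ERBB2, ERBB3 and ERRFI1 are higher, and HBEGF and EPGN overlap.

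Among the ligands AREG was the most abundant. AREG (amphiregulin), a lower-affinity EGFR ligand, had 39.09, 37.66 and 37.46 FPKM in siDYRK2 libraries, against 60.55, 68.58 and 79.26 FPKM in scramble libraries. The siDYRK2 libraries lay close together and all below the lowest scramble library, while the scramble libraries were spread, with a coefficient of variation of 2.34% in siDYRK2 and 13.5% in scramble. The log2 fold change, siDYRK2 minus scramble on log2(FPKM + 0.5), was −0.85 (SE 0.0876, limma adjusted p = 3.9e-04), where the added 0.5 FPKM makes the changes of low genes look smaller.

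EREG (epiregulin), its neighbour on chromosome 4, binds EGFR and the receptor ERBB4. EREG had 21.74, 23.16 and 20.29 FPKM in siDYRK2 libraries, against 36.65, 40.37 and 42.72 FPKM in scramble libraries. No siDYRK2 library reached the lowest scramble library. The log2 fold change was −0.86 (SE 0.0675, limma adjusted p = 1.2e-04). The ratio of AREG to EREG was 1.76 ± 0.116 in siDYRK2 and 1.74 ± 0.106 in scramble libraries (SD, n = 3 each), so the FPKM of both genes fell in nearly the same proportion.

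BTC (betacellulin), which activates EGFR and ERBB4, was the third ligand of the chromosome 4 group to fall. BTC had 5.14, 5.43 and 4.85 FPKM in siDYRK2 libraries, against 7.68, 7.61 and 8.85 FPKM in scramble libraries. The groups did not overlap, and the mean was 1.57-fold lower in siDYRK2 libraries (log2 fold change −0.60, SE 0.0696, limma adjusted p = 6.5e-04). EPGN (epigen), a low-affinity ligand and the fourth gene of the group, was near the lower end of the table. EPGN had 0.16, 0.03 and 0.09 FPKM in siDYRK2 libraries, against 0.04, 0.05 and 0.03 FPKM in scramble libraries. These ranges overlap, the gene was below the filter of 0.5 FPKM, and no fold change is given. The chromosome 4 ligands that passed the filter were thus called lower, 3 of 3, beside 17.9% of all genes tested, and their shared position was not tested.

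TGFA (transforming growth factor α), a classical EGFR ligand, moved the other way. TGFA had 12.24, 11.73 and 10.84 FPKM in siDYRK2 libraries, against 9.34, 10.20 and 9.83 FPKM in scramble libraries. The lowest siDYRK2 library was above the highest scramble library by less than 1 FPKM. The log2 fold change was 0.23 (SE 0.0554, limma adjusted p = 0.014). HBEGF (heparin-binding EGF-like growth factor), which is also a tubular repair factor, had 7.02, 7.55 and 7.34 FPKM in siDYRK2 libraries, against 6.01, 6.87 and 8.69 FPKM in scramble libraries. Its siDYRK2 values all lay within the scramble range. The log2 fold change was 0.04 with a 95% interval from −0.24 to 0.31 (limma adjusted p = 0.84), so changes of that size either way are not excluded for HBEGF.

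Summed over the 6 ligands, the level was 83.9 ± 2.66 FPKM in siDYRK2 libraries and 134 ± 14.6 FPKM in scramble libraries (SD, n = 3 each). The sum ranged from 80.9 to 85.6 FPKM in siDYRK2 and from 120 to 149 FPKM in scramble libraries. AREG made up 45.4% ± 1.21 of the sum in siDYRK2 and 51.6% ± 1.38 in scramble libraries (SD, n = 3 each). EREG made up 25.9% ± 1.05 in siDYRK2 and 29.8% ± 1.01 in scramble libraries (SD, n = 3 each). TGFA made up 13.8% ± 0.474 in siDYRK2 and 7.33% ± 0.649 in scramble libraries (SD, n = 3 each). The ratio of AREG to TGFA was 3.29 ± 0.147 in siDYRK2 and 7.09 ± 0.851 in scramble libraries (SD, n = 3 each). Transcript sums say nothing of how much ligand was released or how strongly it binds.

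**Figure D2:**
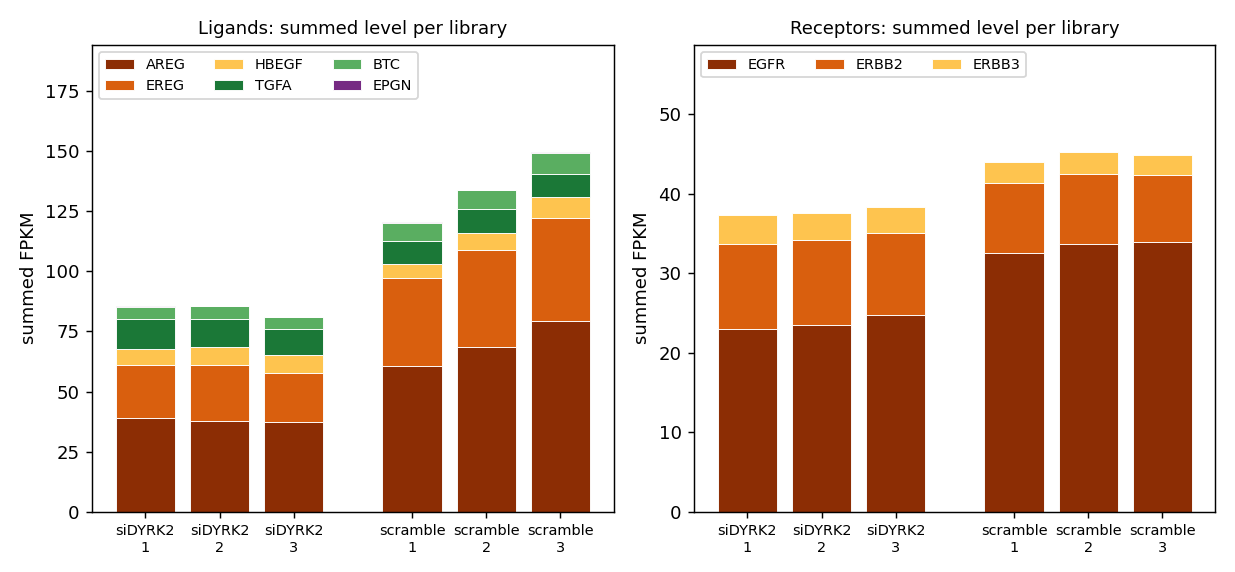
Summed FPKM per library of the 6 ligands (left panel) and the 3 receptors (right panel), each bar 1 library, siDYRK2 before scramble, coloured by gene. The ligand bars reach 80.9 to 85.6 FPKM in siDYRK2 and 120 to 149 FPKM in scramble libraries, and the receptor bars 37.3 to 38.4 FPKM in siDYRK2 and 43.9 to 45.2 FPKM in scramble libraries.

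EGFR, the receptor of all 6 ligands, was the most abundant receptor and the receptor that fell. EGFR had 22.94, 23.52 and 24.70 FPKM in siDYRK2 libraries, against 32.50, 33.70 and 33.90 FPKM in scramble libraries. Both groups were tight and far apart, with coefficients of variation of 3.78% in siDYRK2 and 2.27% in scramble. The log2 fold change was −0.48 (SE 0.0378, limma adjusted p = 1.2e-04). Reads of EGFR-AS1, an antisense gene inside EGFR, could not be told apart from EGFR reads if the counting ignored strand, but EGFR-AS1 did not exceed 0.09 FPKM.

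ERBB2, the partner receptor, rose. ERBB2 had 10.73, 10.60 and 10.32 FPKM in siDYRK2 libraries, against 8.81, 8.80 and 8.48 FPKM in scramble libraries. The groups did not overlap, and the mean was 1.21-fold higher in siDYRK2 libraries (log2 fold change 0.26, SE 0.0376, limma adjusted p = 0.0016). ERBB2 overlaps the opposite-strand genes PGAP3 and MIEN1. MIEN1 had 10.96, 8.35 and 10.24 FPKM in siDYRK2 and 9.17, 8.86 and 9.87 FPKM in scramble libraries, and PGAP3 had 3.72, 3.76 and 3.81 FPKM in siDYRK2 and 3.6, 4.55 and 3.82 FPKM in scramble libraries. Whether reads were assigned by strand is not given in the sources used here, so part of the ERBB2 value may belong to these neighbours, whose groups overlap.

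ERBB3, the neuregulin receptor, was the lowest of the 3 receptors. ERBB3 had 3.59, 3.47 and 3.35 FPKM in siDYRK2 libraries, against 2.61, 2.68 and 2.43 FPKM in scramble libraries. Again no library of one group fell within the range of the other (log2 fold change 0.37, SE 0.0585, limma adjusted p = 0.0026). The annotation places a second protein-coding gene, AC034102.2, over ERBB3 on the same strand, and reads of both could not be told apart. The 3 receptors summed to 37.7 ± 0.570 FPKM in siDYRK2 and 44.6 ± 0.648 FPKM in scramble libraries (SD, n = 3 each). Within that sum EGFR took 62.8% ± 1.42 in siDYRK2 and 74.7% ± 0.838 in scramble, and ERBB3 9.20% ± 0.453 in siDYRK2 and 5.77% ± 0.297 in scramble (SD, n = 3 each). The ratio of EGFR to ERBB2 was 2.25 ± 0.131 in siDYRK2 and 3.84 ± 0.155 in scramble libraries (SD, n = 3 each).

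ERRFI1, the feedback inhibitor, was the most abundant of the 10 transcripts in both groups. ERRFI1 had 149.45, 151.80 and 151.99 FPKM in siDYRK2 libraries, against 113.67, 126.77 and 134.24 FPKM in scramble libraries. The siDYRK2 libraries differed by less than 3 FPKM and all exceeded the highest scramble library (log2 fold change 0.28, SE 0.0576, limma adjusted p = 0.0081). There were 6.37 ± 0.194 ERRFI1 per EGFR by FPKM in siDYRK2 and 3.74 ± 0.232 in scramble libraries (SD, n = 3 each). The antisense gene AL034417.4, which overlaps ERRFI1, had 0.22 to 0.29 FPKM in siDYRK2 and 0.10 to 0.12 FPKM in scramble libraries. ERRFI1 thus rose while EGFR, AREG, EREG and BTC fell.

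**Figure D3:**
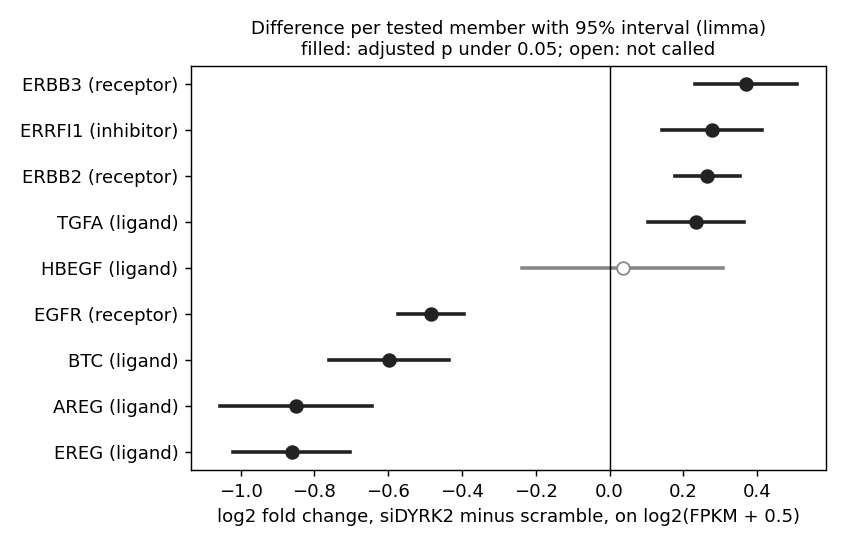
Log2 fold change, siDYRK2 minus scramble on log2(FPKM + 0.5), of the 9 tested members with 95% intervals from limma; filled points have an adjusted p under 0.05. ERBB3, ERRFI1, ERBB2 and TGFA lie above 0, HBEGF spans 0, and EGFR, BTC, AREG and EREG lie below 0.

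By FPKM the order of the members in siDYRK2 libraries was ERRFI1, AREG, EGFR, EREG, TGFA, ERBB2, HBEGF, BTC, ERBB3 and EPGN. Within that order the ranges of EGFR and EREG overlapped and no other neighbours did. In scramble libraries EREG stood above EGFR and BTC above HBEGF, and the ranges of ERBB2 and BTC and those of BTC and HBEGF overlapped. Among the 5793 genes called in the comparison, 95.01% changed less than EREG and 94.8% less than AREG in absolute log2 fold change, whereas 28.1% changed less than TGFA. For 7 of the 9 tested members the coefficient of variation was larger in scramble than in siDYRK2 libraries, EGFR and TGFA being the exceptions. The difference was small for EREG (7.67% in scramble, 6.60% in siDYRK2) and ERBB2 (2.16% in scramble, 1.99% in siDYRK2). Neither this count nor the next was taken over all genes tested. Scramble replicate 3 was the highest of its group for 6 of the 9, namely AREG, EREG, HBEGF, BTC, EGFR and ERRFI1. Without that library the log2 fold change was −0.75 for AREG, 0.33 for ERRFI1 and 0.17 for HBEGF, the last not called (limma adjusted p = 0.10).

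A short sequence, chosen because earlier results of these data linked it to lower transcripts, was looked up in the members. ATCTATA or CATCTAT occurs in the longest protein-coding transcript (GENCODE v29) of 26.1% of 11917 tested genes. Of genes with either word 25.9% were called lower, against 15.9% of genes without. Because the words were chosen from these data, that difference is no test of them, and transcript length was not taken into account. Of the 4 members that fell, EREG (4619 bases), BTC (2816 bases) and EGFR (9821 bases) carry a word and AREG (1240 bases) carries neither. Of the 4 that rose, ERBB3 (5919 bases) carries ATCTATA. TGFA (4310 bases), ERBB2 (4792 bases) and ERRFI1 (3104 bases) carry neither. The DYRK2 transcript carries both words. The part of these words in the members' values was not tested.

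The remaining ligands and the remaining receptor of the family were low. EGF, NRG1, NRG4 and ERBB4 were below 0.5 FPKM and NRG3 had no row. NRG2, a neuregulin and the only gene of this list that was tested, stood at 0.890 ± 0.0608 FPKM in siDYRK2 and 1.03 ± 0.105 FPKM in scramble libraries (SD, n = 3 each; log2 fold change −0.14, limma adjusted p = 0.27).

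Of 10 tested sheddases and their partners 3 rose and 1 fell, a share called close to that of all genes tested (38.3%, with 20.4% higher and 17.9% lower). The median log2 fold change was 0.06, against 0.01 over all genes tested. ADAM10, the main sheddase of BTC, rose to 15.2 ± 0.634 FPKM in siDYRK2 libraries, against 10.7 ± 0.571 FPKM in scramble libraries (SD, n = 3 each; log2 fold change 0.50, limma adjusted p = 3.9e-04). ADAM9 (log2 fold change 0.36) and ADAM15 (log2 fold change 0.21) also rose. ADAM8, a protease best known from leukocytes, fell to 6.0 ± 0.358 FPKM in siDYRK2, against 13.1 ± 0.534 FPKM in scramble libraries (SD, n = 3 each; log2 fold change −1.06, limma adjusted p = 1.9e-05). ADAM17, the main sheddase of AREG, EREG, HBEGF and TGFA, was looked up after its values were seen and was not called, at 8.25 ± 0.0737 FPKM in siDYRK2 and 8.82 ± 0.156 FPKM in scramble libraries (SD, n = 3 each; limma adjusted p = 0.088).

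Among genes that restrain or sort the receptor, 3 of 17 rose and 2 fell (median log2 fold change 0.05), a smaller share called than the 38.3% of all genes tested. PTPRJ, a phosphatase that acts on EGFR, rose to 3.86 ± 0.0666 FPKM in siDYRK2, against 2.19 ± 0.158 FPKM in scramble libraries (SD, n = 3 each; log2 fold change 0.70, limma adjusted p = 2.0e-04). PTPN1, another phosphatase of the receptor, rose with a log2 fold change of 0.19. HGS, which sorts ubiquitinated receptor on endosomes, fell to 21.9 ± 0.356 FPKM in siDYRK2, against 26.5 ± 0.446 FPKM in scramble libraries (SD, n = 3 each; limma adjusted p = 6.0e-04). The other calls, STAM (log2 fold change −0.16), the partner of HGS, and RNF41 (log2 fold change 0.12), a ligase for ERBB3 named here after its values were seen, were lost in 4 and 8 of 14 alternative analyses.

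In the adaptors and the RAS-ERK and PI3K relay 8 of 23 tested genes rose and 4 fell (median log2 fold change 0.07), beside 20.4% higher and 17.9% lower over all genes tested. MAP2K1, the ERK kinase MEK1, rose to 20.2 ± 0.685 FPKM in siDYRK2, against 14.5 ± 0.490 FPKM in scramble libraries (SD, n = 3 each; log2 fold change 0.46, limma adjusted p = 2.1e-04). The adaptor GRB2 (log2 fold change 0.35) and the phospholipase PLCG1 (log2 fold change 0.35) rose as well. SHC1, an adaptor that links the receptor to GRB2, fell to 174 ± 1.55 FPKM in siDYRK2, against 206 ± 0.479 FPKM in scramble libraries (SD, n = 3 each; log2 fold change −0.25, limma adjusted p = 3.4e-04).

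In the list of ERK output genes, transcripts commonly used to read ERK activity, 5 of 10 fell and 2 rose (median log2 fold change −0.12), beside 17.9% lower and 20.4% higher over all genes tested. PHLDA1, a pleckstrin-homology protein, fell to 55.2 ± 0.467 FPKM in siDYRK2, against 76.4 ± 4.15 FPKM in scramble libraries (SD, n = 3 each; log2 fold change −0.46, limma adjusted p = 2.2e-04). The ERK phosphatases DUSP4 (log2 fold change −0.51) and DUSP6 (log2 fold change −0.40) fell, as did EPHA4, an ephrin receptor, at 0.727 ± 0.0666 FPKM in siDYRK2 and 1.35 ± 0.146 FPKM in scramble libraries (SD, n = 3 each). The fifth gene to fall was SPRY2 (log2 fold change −0.19), and the 2 that rose were SPRY4 (log2 fold change 0.23) and ETV4 (log2 fold change 0.15), all 3 named after their values were seen. The calls of SPRY4 and ETV4 were each lost in 7 of 14 alternative analyses, and that of SPRY2 in 1. ETV5 (limma adjusted p = 0.39), EPHA2 (limma adjusted p = 0.21) and CCND1 (limma adjusted p = 0.33), also named after their values were seen, were not called. ERRFI1, itself a feedback gene of the pathway, rose, as did SPRY4 and ETV4, while PHLDA1, DUSP4, DUSP6, EPHA4 and SPRY2 fell.

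**Figure D4:**
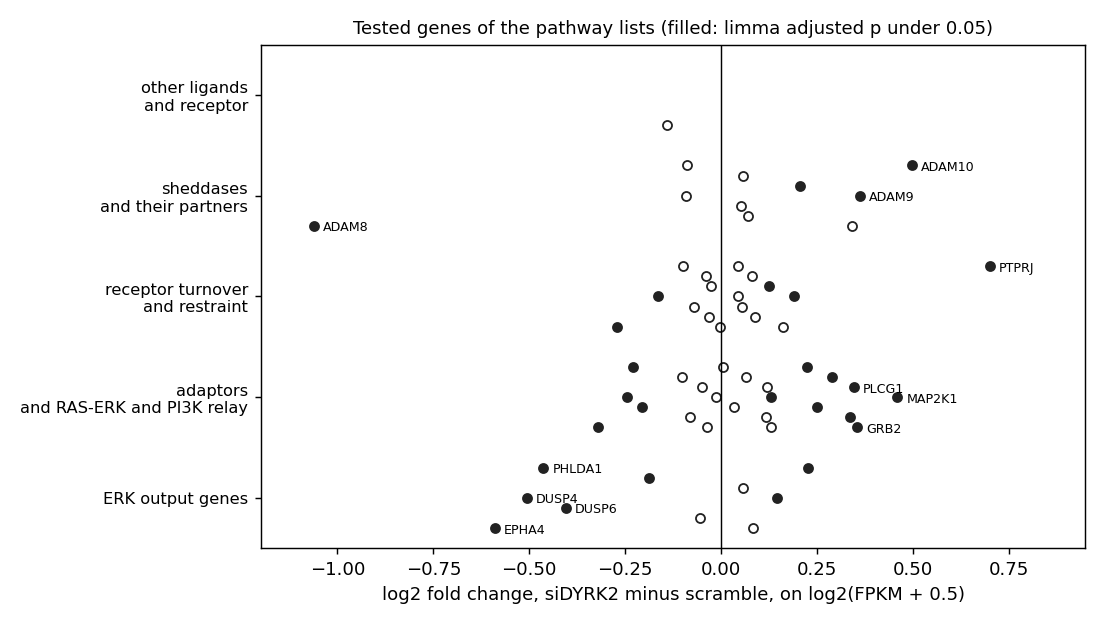
Log2 fold change, siDYRK2 minus scramble on log2(FPKM + 0.5), of the tested genes of each pathway list, 1 point a gene, spread vertically for legibility; filled points have a limma adjusted p under 0.05. ADAM8 has the most negative value (−1.06) and PTPRJ the most positive (0.70), and 5 of the 7 filled points among the ERK output genes lie below 0.

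Transcripts with the profile closest to EREG and to ERBB3, the members with the largest fall and the largest rise, were found by the Euclidean distance over the 6 libraries among 10315 other tested genes with a symbol and a mean of at least 2 FPKM. For EREG these were FGF2, RING1, CD24, ATF5 and NEU1, at distances of 0.095 to 0.14 log2 units. FGF2, a fibroblast growth factor, stood at 11.04 ± 0.769 FPKM in siDYRK2 and 21.2 ± 1.44 FPKM in scramble libraries (SD, n = 3 each). For ERBB3 they were FAM98A, ADAM9, HBS1L, PDIA6 and APEX2, at distances of 0.054 to 0.063 log2 units. The distance covers 6 libraries in 2 groups and says nothing of shared function.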

How the data were processed

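Total RNA was sequenced from 6 libraries, 3 siDYRK2 and 3 scramble, grouped as the labels state. The authors deposited FPKM rounded to 2 decimals for 33392 genes. HISAT2, StringTie and the build GRCh38 appear in the submitters' processing notes. Not given in the sources used here were versions, strand use and filters. All 6 columns matched library names in the labels, 0 other sample columns were present and 0 pairs of columns were identical. For short genes with 1 transcript, FPKM times length was divided by trial read steps. At the best step 24.9% to 26.3% of values came within 0.1 of whole, where chance gives 20%. Reads were therefore not recovered, no count model was used and depth is unknown.

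The 15121 genes averaging 0.5 FPKM or more were tested with limma 3.58.1 in R 4.3.3 on log2(FPKM + 0.5), with a mean-variance trend, no covariate and Benjamini-Hochberg adjustment at 0.05. The fit was tested on simulated data. A stated fold is the ratio of group means in FPKM. The members and lists were chosen with earlier results of these data known. Named are DYRK2, all members, up to 4 genes with the smallest adjusted p of those past the threshold in each list, and the 5 profiles closest to 2 members. Alternatives changed the pseudocount, filter, trend, scaling, replicate block and libraries. Promoters came from RefSeq (GRCh38.p14), positions from GENCODE v29. Python 3.11.15 with pandas 2.3.3, scipy 1.17.1 and matplotlib 3.10.9 was used. Part of the renal marker list is not reported here.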

Additional observations from a re-analysis of the deposited data

How the results depend on the processing

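Under all 14 alternatives (pseudocount of 0.1 or 1, no filter or a mean of at least 1 FPKM, replicate block, no mean-variance trend, rescaling without mitochondrial genes, quantile normalization, and each of the 6 libraries left out) 4 members were called higher and 4 lower. The highest limma adjusted p among these alternatives was 0.0031 for AREG, 0.0017 for EREG, 0.0064 for BTC, 0.0014 for EGFR, 0.0094 for ERBB2, 0.0128 for ERBB3, 0.0301 for ERRFI1 and 0.0477 for TGFA, the last without siDYRK2 replicate 2. HBEGF was called under none of them, with log2 fold changes from −0.08 to 0.17. EPGN was tested only with no filter (adjusted p = 0.41). DYRK2 ranged from −1.93 to −1.48.

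Genes called higher numbered 2332 to 3219 and lower 2099 to 2715. The replicate block gave 2495 higher and 2321 lower. The labels give no pairing of same-numbered libraries. Their deviations from the group means correlated at −0.09 to 0.02, and not every library correlated best with its own number. With 3 libraries in a group these correlations cannot decide whether such libraries share a culture or a batch.

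Of the pathway lists, the count of 2 lower restraint genes was 1 with the replicate block and 1 to 2 with a library left out. The count of 2 higher ERK output genes was 0 with no filter, 1 with the replicate block, 1 without the trend, 1 with quantile normalization, and 0 to 1 with a library left out. The cause was not tested. A library left out means a group of 2.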
